A study of Mus musculus with 10 samples.

Results

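The 45 genes described here make or run the machinery that shows peptides to T cells: the genes of the mouse major histocompatibility complex (MHC), whose symbols begin with H2-, and *B2m*, *Cd74*, *Ciita*, *Nlrc5*, *Tap1*, *Tap2*, *Tapbp*, *Tapbpl*, *Psmb8*, *Psmb9*, *Psmb10*, *Psme1*, *Psme2*, *Erap1*, *Ifi30* and *Cd1d1*. They were picked out by these symbols from the 21792 genes with a value, and no measured value enters the rule, although the gene group was chosen with earlier results of these data known. The annotation holds 61 such symbols, and the other 16, among them *H2-Ea-ps*, were not analysed here. By role, 30 belong to the class I pathway, 12 to the class II pathway and 3 to neither class (*Cd1d1*, a class I-like presenter of lipids, the pseudogene *H2-K2*, and *H2-Ke6*, an enzyme gene that lies within the MHC). In all, 34 of the 45 lie on chromosome 17.

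MHC class I molecules, made of a heavy chain and beta-2 microglobulin, are carried by nearly all nucleated cells and show peptides from the cytosol to CD8+ T cells. Proteasomes cut these peptides, the transporter TAP carries them into the endoplasmic reticulum, and tapasin helps to load them. MHC class II molecules, made of an alpha and a beta chain, are carried mainly by dendritic cells, macrophages and B cells, and by some epithelia under interferon gamma, and show peptides from endosomes to CD4+ T cells. The invariant chain guards their groove and H2-DM exchanges its remnant for peptide. The strain used here carries an inactive alpha chain gene of the E isotype, so its cells show the A isotype.

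Gene expression was profiled in the cortex of kidney from male wild-type C57BL/6 mice of 8 weeks, taken 28 days after 1 intraperitoneal injection. The 4 sham mice received PBS, and the 6 mice with aristolochic acid nephropathy (AAN) received aristolochic acid, a plant toxin of the proximal tubule, at 5 mg/kg. Each library came from 1 mouse and is named here by its tag (sham B607, B634, B636 and H249, and AAN A483, B614, B630, B639, B642 and B666). Levels are in FPKM, which count fragments relative to the length of the gene model and to the depth of the library, so that genes can be compared per length. The depth recovered from low values was 15.8 to 17.5 M fragments in the sham mice and 13.4 to 16.5 M in the AAN mice.

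Markers of the labelled tissue were present: the proximal tubule list of 5 genes summed to 1599 to 3475 FPKM in the sham mice and the podocyte list to 42.4 to 82.7 FPKM. Sham B634 stood apart from the other sham mice in its 16690 genes above 0, against 17521 to 17639 in the others. Mitochondrial genes took 39.5% to 61.4% of the FPKM total in the sham mice, with sham B634 the highest, and 21.4% to 55.03% in the AAN mice. With each library set to the same total outside these genes, 42 members were again called higher. Leaving out this or any other mouse left the counts of members called at 42, with 28 of class I and 12 of class II. Whole tissue was measured, so fewer cells of a type and less RNA per cell cannot be told apart.

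A motif pair was searched in the promoters, since MHC genes of both classes are known to share an X box and a Y box bound by RFX, CREB and NF-Y, on which the transactivators CIITA (class II) and NLRC5 (class I) assemble. RefSeq promoters on GRCm38.p6 were held for 32 of the 45 members. The letters TGANG, 17 to 21 other bases and ATTGG, on either strand of the 250 bases before the start, were found in 10 of these 32, namely 5 of 22 of class I and 5 of 9 of class II, against 1.47% of the 27025 genes with a promoter. The spacing was set after looking at these promoters, so this share is a description. The letters ATTGG alone, on either strand, were in 24 of the 32 and in 37.5% of all genes with a promoter. Of the 10, the 3 of class I and the 3 of class II shown here lie outside annotated exons, with TGANG and ATTGG in capitals, 5′ to 3′ on the strand of the gene.
B2m, chr2:122147589-122147644 (+): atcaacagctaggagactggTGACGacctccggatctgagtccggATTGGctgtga
H2-K1, chr17:34000353-34000408 (-): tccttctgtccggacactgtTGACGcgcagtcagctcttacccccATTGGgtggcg
H2-Q7, chr17:35439071-35439125 (+): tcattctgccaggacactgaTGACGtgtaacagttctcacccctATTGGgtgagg
H2-Aa, chr17:34287861-34287917 (-): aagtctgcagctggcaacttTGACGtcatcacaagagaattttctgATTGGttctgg
H2-Eb1, chr17:34305764-34305818 (+): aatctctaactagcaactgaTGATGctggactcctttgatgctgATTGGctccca
H2-DMb2, chr17:34145114-34145169 (+): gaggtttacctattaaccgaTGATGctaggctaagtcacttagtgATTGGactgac
The gap between the motifs was 19 to 21 bases in these 6. *H2-Ob*, a further class II gene with the pair, had a gap of 17 bases. The other 3 were *H2-D1*, *H2-M3* and *H2-DMb1*. *H2-Ab1*, *Cd74*, *Ciita*, *Nlrc5* and *Tap2* had no promoter in the table.

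As a whole, the antigen presentation genes were higher in the cortex of kidney from AAN. Of the 44 members that passed a filter of a mean of 0.1 FPKM over the 10 mice, 42 were called higher and 0 lower, while 35.8% of the 17129 genes tested were called higher and 3.43% lower. A call needed an adjusted p of at most 0.05 (limma, Benjamini-Hochberg over all genes tested) and at least a 2-fold change. *H2-Q1* was under the filter. The median log2 fold change was 2.74 for the 29 class I genes tested and 4.47 for the 12 class II genes, against 0.75 for all genes tested. Together the members took 0.321% to 0.415% of the FPKM outside mitochondrial genes in the sham mice and 2.63% to 6.31% in the AAN mice. In 40 of the 44, every AAN mouse exceeded every sham mouse, which held for 40.3% of all genes tested. The 4 members whose groups overlapped were *Erap1*, *H2-M5*, *H2-Bl* and *H2-Ke6*. In addition, 4 members (*H2-Eb2*, *H2-M2*, *H2-M5* and *H2-Q10*) had a sham mean under 0.1 FPKM and passed the filter through the AAN mice, so their calls follow in part from the filter.

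The median gene had a higher FPKM in AAN, and the calls depended on the scaling between mice. Of all calls, 91.2% were higher on the deposited FPKM, 64.4% after rescaling by the median of ratios and 56.1% after quantile normalization. These scalings moved the median change of all genes from 0.75 to 0.06 and -0.10. Relative to it, the class I median was 1.99 on the deposited FPKM, 1.93 after the median of ratios and 2.17 after quantile normalization, and the class II median 3.72, 3.71 and 3.84. Under either rescaling, 38 of the 44 members were called higher, with 24 of 29 of class I and 12 of 12 of class II, where 19.1% (median of ratios) and 14.9% (quantile) of all genes were called higher. After the median of ratios 10.5% were called lower, with 1 member among them.

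**Figure D1:**
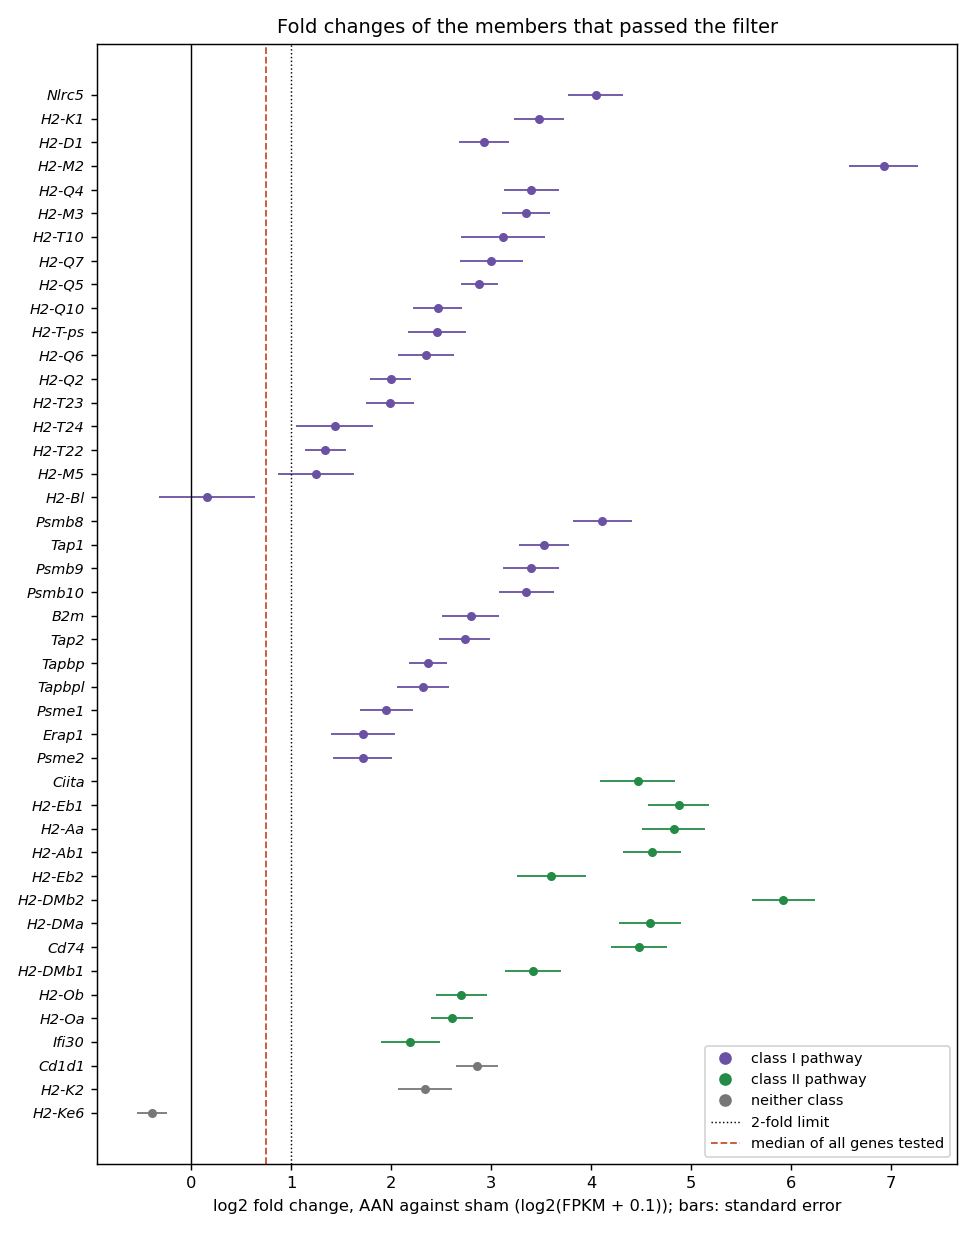
Log2 fold change of AAN against sham on the log2(FPKM + 0.1) scale (horizontal axis), with its standard error, for each of the 44 members tested, ordered by role. The 12 class II genes (green) lay between 2.19 and 5.92 and the 29 class I genes (purple) between 0.16 and 6.93, against a median of 0.75 for all genes tested (dashed line).

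The classical class I heavy chains, which present peptides to CD8+ T cells, were both higher in AAN. *H2-K1* (chromosome 17, bases 33996017 to 34000347 of GRCm38) was at 27.8, 22.1, 24.3 and 32.2 FPKM in the sham mice and from 214 to 511 FPKM (median 286) in the AAN mice. *H2-D1* (chromosome 17, bases 35262730 to 35267499) was at 93.3, 83.4, 104 and 123 FPKM in the sham mice and from 519 to 1329 FPKM (median 736) in the AAN mice. For both, the lowest AAN mouse was above the highest sham mouse. On the log2 scale *H2-K1* rose by 3.48 (SE 0.25, adjusted p = 4.60e-07) and *H2-D1* by 2.93 (SE 0.25, adjusted p = 1.90e-06). *H2-D1* remained the more abundant of the pair, but the ratio of *H2-D1* to *H2-K1* went from 3.82 ± 0.385 (SD, n = 4) to 2.59 ± 0.132 (SD, n = 6) without overlap of the groups, and *H2-K1* took 13.3% of the summed class I heavy chain FPKM in sham and 20.04% in AAN. In windows of 100 bases, *H2-D1* shares 3.59% of its exonic sequence with other genes and *H2-K1* 0.957%.

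The nonclassical heavy chains, which present fewer kinds of peptide or serve as ligands of innate receptors, changed less evenly. Of the 15 tested, 14 were called higher and 0 lower (35.8% and 3.43% of all genes), with a median of 2.46. After the median of ratios 12 of 15 were called higher and after quantile normalization 10 of 15, where 19.1% and 14.9% of all genes were. With 1 as the pseudocount it was 11 of 15, where 2909 of the 17129 genes tested were. *H2-Q4* rose from a sham mean of 9.14 ± 1.94 FPKM (SD, n = 4) to an AAN mean of 101 ± 31.8 FPKM (SD, n = 6), by 3.40 (SE 0.28, adjusted p = 1.14e-06), and *H2-Q6*, the most abundant of them, from a sham mean of 28.1 ± 13.2 FPKM (SD, n = 4) to an AAN mean of 138 ± 37.0 FPKM (SD, n = 6), by 2.35 (SE 0.28, adjusted p = 2.43e-05). *H2-T23*, which encodes Qa-1, a ligand of the receptor NKG2A, was at 12.7, 10.6, 11.5 and 7.71 FPKM in the sham mice and from 26.8 to 63.3 FPKM (median 40.8) in the AAN mice, again without overlap. It rose by 1.99 (SE 0.24, adjusted p = 2.28e-05). *H2-M3*, which presents N-formylated peptides of bacteria, rose from a sham mean of 1.52 ± 0.519 FPKM (SD, n = 4) to an AAN mean of 16.1 ± 3.77 FPKM (SD, n = 6), by 3.35 (SE 0.24, adjusted p = 4.87e-07). The smallest increases of the nonclassical genes averaging 1 FPKM or more were those of *H2-T22* (1.34), *H2-T24* (1.43), *H2-T23* (1.99) and *H2-Q2* (1.997); *H2-T22* and *H2-T24* lost their calls under both rescalings and *H2-Q2* under quantile normalization. *H2-Q5*, *H2-Q7*, *H2-T10* and *H2-T-ps* rose by 2.88, 3.003, 3.12 and 2.46. Of the nonclassical genes, *H2-T-ps* is annotated as a pseudogene, and *H2-Q5*, *H2-T10* and *H2-Bl* as polymorphic pseudogenes. *H2-Bl*, named because its call is the exception, averaged 0.153 ± 0.208 FPKM (SD, n = 4) in the sham and 0.156 ± 0.126 FPKM (SD, n = 6) in the AAN mice (adjusted p = 0.784).

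With the pseudocount of 0.1, *H2-M2* had the largest fitted fold change of the members, from a level at or near 0. It was listed at 0.0496, 0, 0 and 0.132 FPKM in the sham mice and from 9.66 to 30.5 FPKM (median 15.7) in the AAN mice. All AAN mice were far above the sham mice, but the size of the fold change depends on the pseudocount, being 4.07 with 1 and 9.09 with 0.01. With a pseudocount of 1 the largest change of class II, 4.86, exceeded that of *H2-M2*. In sham B634 and sham B636, listed at 0, 3 fragments over its exonic length would give 0.122 and 0.118 FPKM, a limit that covers counting error only. *H2-M2* shares no window of 100 bases with another gene. The *H2-Q* genes do share sequence, up to 14.01% of the windows of *H2-Q5*, so they were also summed: the *H2-Q* sum rose from 44.8 to 297.5 FPKM (log2 fold change 2.75, SE 0.27) and the *H2-T* sum from 27.1 to 94.1 FPKM (1.76, SE 0.21).

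All 11 genes of peptide supply and loading for class I were called higher, where 35.8% of all genes were. After the median of ratios 9 of 11 were called, where 19.1% of all genes were, and after quantile normalization 11 of 11, where 14.9% were. *B2m*, the light chain of every class I molecule (chromosome 2, bases 122147686 to 122153083), was at 306, 384, 451 and 451 FPKM in the sham mice and from 1605 to 4327 FPKM (median 2861) in the AAN mice. The groups did not overlap, and *B2m* ranked 8 among 21779 nuclear genes in AAN and 67 in sham. It rose by 2.80 (SE 0.28, adjusted p = 6.36e-06). *Tap1* and *Tap2*, the subunits of the peptide transporter, rose from 0.608 to 8.04 FPKM (3.53 (SE 0.25, adjusted p = 4.76e-07)) and from 4.19 to 28.6 FPKM (2.74 (SE 0.25, adjusted p = 3.17e-06)). The ratio of *Tap2* to *Tap1* went from 7.10 ± 1.53 (SD, n = 4) to 3.61 ± 0.780 (SD, n = 6), again without overlap. *Tapbp* (tapasin) and *Tapbpl* (its relative TAPBPR, a peptide editor) rose by 2.37 (SE 0.19, adjusted p = 1.08e-06) and 2.32 (SE 0.26, adjusted p = 1.43e-05). *Erap1*, which trims peptides in the endoplasmic reticulum, was at 7.64, 3.08, 3.03 and 4.05 FPKM in the sham mice and from 7.29 to 21.4 FPKM (median 14.6) in the AAN mice. Its groups overlapped, since AAN B630 lay under sham B607. *Erap1* rose by 1.72 (SE 0.32, adjusted p = 0.000685) and lost its call after the median of ratios.

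The 3 catalytic subunits of the immunoproteasome, which replace those of the constitutive proteasome under interferon, rose, while the constitutive core did not pass the limits. *Psmb8* was at 2.42, 2.05, 3.13 and 3.55 FPKM in the sham mice and from 27.1 to 87.6 FPKM (median 45.6) in the AAN mice. It rose by 4.11 (SE 0.29, adjusted p = 5.07e-07), and the groups were separate. *Psmb9* rose from 1.16 to 13.5 FPKM (3.40) and *Psmb10* from 9.47 to 101 FPKM (3.35). Of the 7 constitutive beta subunits, 0 were called by limma in either direction, where 35.8% of all genes were called higher and 3.43% lower. Their median was 0.26, against 0.75 for all genes, with values from -0.28 (*Psmb7*) to 0.68 (*Psmb2*). After the median of ratios their median was -0.51, against 0.06 for all genes. Under that scaling 1 of the 7, *Psmb7* (-1.04), was called lower, where 10.5% of all genes were. Each immune subunit was compared with the subunit it replaces within the same mouse. *Psmb8* gained 4.07 (SE 0.20) on *Psmb5*, *Psmb9* 3.12 (SE 0.14) on *Psmb6* and *Psmb10* 3.63 (SE 0.24) on *Psmb7* on the log2 scale, and in each pair 6 of 6 AAN mice exceeded every sham mouse (two-sided exact permutation over 210 splits, whose lowest possible p of 0.00476 was reached, 0.00612 adjusted over 9 pairs). In FPKM, *Psmb8* made up 2.04% of the *Psmb8* and *Psmb5* sum in sham and 26.6% in AAN, *Psmb9* 1.94% and 15.8% of its pair, and *Psmb10* 21.7% and 77.0%. Quantile normalization, which alters values within a library, gave differences of 3.42, 2.26 and 3.59, past the limit in each pair. *Psmb10* was thus more abundant than *Psmb7* in all 6 AAN mice, at 64.6% to 81.6% of the pair, and less abundant in all 4 sham mice.

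The interferon-inducible proteasome activators *Psme1* and *Psme2* (PA28 alpha and beta) rose by 1.95 (SE 0.26, adjusted p = 6.13e-05) and 1.71 (SE 0.29, adjusted p = 0.000354). *Psme3* (PA28 gamma) and *Psme4* (PA200) were not called, at 0.31 and -0.09. *Psme1* gained 1.65 (SE 0.44) on *Psme3*, and 5 of 6 AAN mice exceeded every sham mouse (two-sided exact permutation, p = 0.019, adjusted 0.0214). Among the mice with B tags alone the difference was 1.79 and missed the limit (exact permutation, adjusted p = 0.0603). *Psme2* shares 18.4% of its windows with the copy *Psme2b*, and it lost its call after the median of ratios. The chaperones that fold class I in the endoplasmic reticulum (*Calr*, *Canx*, *Pdia3* and *Hspa5*) gave 0 of 4 calls by limma, where 35.8% of all genes were called higher and 3.43% lower. Their median was 0.18, against 0.75 for all genes. The limma adjusted p ran from 0.0841 for *Pdia3* (0.42) to 0.897 for *Calr* (0.03).

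The class II chains *H2-Aa*, *H2-Ab1* and *H2-Eb1* showed larger fold changes than the classical class I chains. *H2-Aa*, the alpha chain of the A isotype (chromosome 17, bases 34282744 to 34287823), was at 37.7, 31.6, 40.3 and 45.9 FPKM in the sham mice and from 469 to 1659 FPKM (median 1190) in the AAN mice. *H2-Ab1*, its beta chain (chromosome 17, bases 34257689 to 34269419), was at 49.2, 30.7, 41.5 and 53.3 FPKM in the sham mice and from 545 to 1670 FPKM (median 1146) in the AAN mice. The ratio of *H2-Aa* to *H2-Ab1*, the 2 chains of this dimer, ran from 0.765 in sham B607 to 1.26 in AAN B630, at 0.907 ± 0.118 (SD, n = 4) in sham and 1.06 ± 0.155 (SD, n = 6) in AAN. *H2-Eb1*, the beta chain of the E isotype (chromosome 17, bases 34305867 to 34316674), was the most abundant class II chain at 75.8, 60.01, 77.0 and 93.2 FPKM in the sham mice and from 994 to 3334 FPKM (median 2435) in the AAN mice, although its alpha partner is inactive in this strain. The groups were separate for all 3 genes, and they rose by 4.83 (SE 0.32, adjusted p = 2.91e-07), 4.61 (SE 0.29, adjusted p = 2.41e-07) and 4.88 (SE 0.31, adjusted p = 2.31e-07) in that order. *H2-Eb2* was listed at 0.129, 0, 0 and 0 FPKM in the sham mice and at 0.777 to 2.58 FPKM in the AAN mice. Its fold change of 3.60 depends on the pseudocount, being 1.24 with 1 and 6.18 with 0.01.

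The genes that load class II were called higher in 7 of 7, where 35.8% of all genes were. Their median was 3.42, against 0.75 for all genes. *Cd74*, the invariant chain, was at 119, 91.8, 120.4 and 125 FPKM in the sham mice and from 1529 to 4375 FPKM (median 2737) in the AAN mice. It rose by 4.48 (SE 0.28, adjusted p = 2.14e-07) without overlap and ranked 9 among nuclear genes in AAN and 315 in sham. *H2-DMa* and *H2-DMb1*, the chains of the peptide exchanger, rose from 4.47 to 118 FPKM (4.59 (SE 0.31, adjusted p = 3.63e-07)) and from 14.7 to 165 FPKM (3.42 (SE 0.28, adjusted p = 1.26e-06)). *H2-DMb2*, a further beta chain gene, was at 0.770, 0.525, 0.506 and 0.577 FPKM in the sham mice and from 24.9 to 87.2 FPKM (median 44.2) in the AAN mice. It rose by 5.92 (SE 0.32, adjusted p = 1.46e-07), and its share of the *H2-DMb1* and *H2-DMb2* sum went from 4.06% ± 1.37 (SD, n = 4) to 21.2% ± 3.52 (SD, n = 6). The 2 genes share 11.3% and 10.3% of their windows with each other. *H2-Oa* and *H2-Ob*, which restrain H2-DM, rose by 2.61 and 2.70. *Ifi30*, a thiol reductase of endosomes, rose by 2.19 (SE 0.29, adjusted p = 5.99e-05), the smallest change of class II on the deposited FPKM with the pseudocount of 0.1. With a pseudocount of 1 the smallest was that of *H2-Ob* (1.16).

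**Figure D2:**
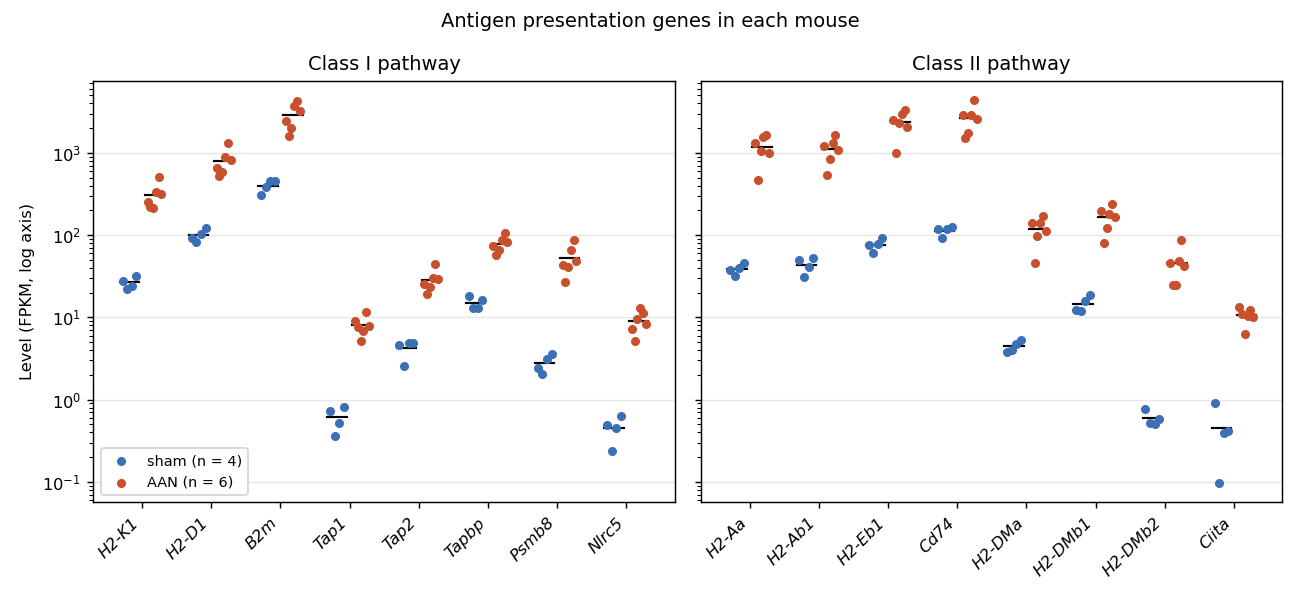
Level of 8 class I and 8 class II pathway genes in each mouse (FPKM, log axis), with 4 sham mice (blue), 6 AAN mice (orange) and the mean of each group (black line). In all 16 genes the AAN mice lay above the sham mice, as for *H2-Eb1*, with a highest sham value of 93.2 FPKM and a lowest AAN value of 994 FPKM.

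Of the 2 transactivators, *Ciita*, which switches on class II, was at 0.902, 0.0961, 0.393 and 0.416 FPKM in the sham mice and from 6.32 to 13.2 FPKM (median 10.7) in the AAN mice. *Nlrc5*, its counterpart for class I, was at 0.489, 0.240, 0.447 and 0.632 FPKM in the sham mice and from 5.16 to 12.9 FPKM (median 8.89) in the AAN mice. Both were separate between the groups. In AAN they averaged 10.6 FPKM (*Ciita*) and 9.05 FPKM (*Nlrc5*), under *H2-K1*, *H2-D1*, *H2-Aa*, *H2-Ab1* and *H2-Eb1* and above the low chains *H2-Eb2*, *H2-Q2* and *H2-T24*. They rose by 4.46 (SE 0.37, adjusted p = 1.45e-06) and 4.05 (SE 0.28, adjusted p = 3.94e-07). The change of *Ciita* was 0.42 (SE 0.43) above that of *Nlrc5* within a mouse, which was not past the spread between mice (two-sided exact permutation, p = 0.343, also 0.343 adjusted over 9 pairs, with 2 of 6 AAN mice over every sham mouse). Its size rested on single mice, being 0.73 without sham B607, 0.21 without sham B634 and 0.25 without AAN B614. Among the 7 factors of the X and Y boxes, *Rfx5* (1.58) and *Nfya* (1.12) were called higher, 2 of 7 where 35.8% of all genes were, and the median of the 7 was 0.65 against 0.75 for all genes. *Nfyc* was the least changed (0.21). The calls of *Rfx5* and *Nfya* did not hold under either rescaling.

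Beside the transactivators, whose difference did not pass the limit, class II was compared with class I by 4 further pairs of genes with like roles in the same mouse. *H2-Ab1* gained 1.13 (SE 0.15) on *H2-K1* in AAN. *H2-Aa* gained 1.90 (SE 0.18) on *H2-D1*, *Cd74* 1.68 (SE 0.18) on *B2m* and *H2-DMa* 2.22 (SE 0.25) on *Tapbp*. In each of these pairs 6 of 6 AAN mice exceeded every sham mouse (two-sided exact permutation, p = 0.00476, 0.00612 adjusted over 9 pairs). *H2-Aa* was lower than *H2-D1* in all sham mice, by 1.31 to 1.42 on the log2 scale, and higher in 5 of 6 AAN mice, with AAN B614 the exception at -0.15. Summed, the class II chains were at 0.791 ± 0.0465 (SD, n = 4) of the FPKM of the class I heavy chains in sham and at 3.05 ± 0.740 (SD, n = 6) in AAN. The groups were separate, at 0.746 to 0.850 and at 1.97 to 4.07. The class II sum holds alpha and beta chains (*H2-Aa*, *H2-Ab1*, *H2-Eb1* and *H2-Eb2*), while the class I sum leaves out the light chain *B2m*. The most abundant chain of the class II sum, *H2-Eb1*, has an inactive alpha partner in this strain. The level of the ratio thus depends on the chains counted and is no ratio of molecules.

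**Figure D3:**
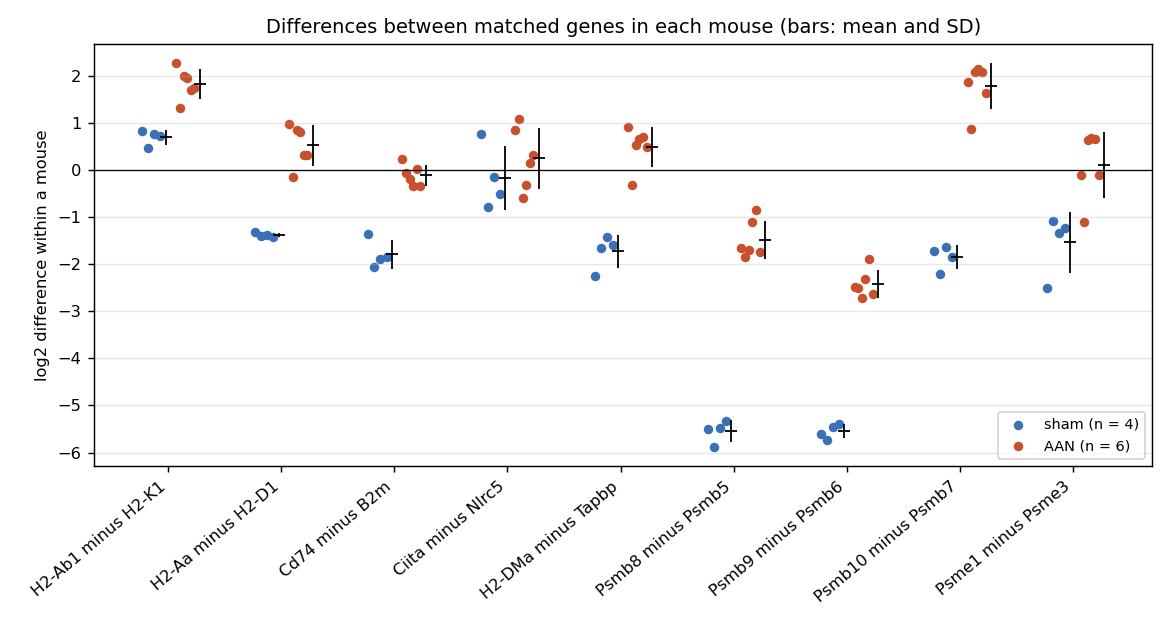
Difference in log2(FPKM + 0.1) between 2 genes of the same mouse (vertical axis) for the 9 pairs compared, in 4 sham mice (blue) and 6 AAN mice (orange), with mean and SD beside the points. The groups were separate in 7 pairs and overlapped for *Ciita* minus *Nlrc5* and *Psme1* minus *Psme3*.

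Of the AAN mice, AAN B642 was the highest in 30 of 44 members and AAN B614 the lowest in 27. The median difference from the sham mean was 3.43 for class I and 4.98 for class II in AAN B642, and 2.35 and 3.64 in AAN B614. The mice between them were not ordered alike in both classes, as AAN A483 was the third lowest for class I at 2.56 and second to AAN B642 for class II at 4.75. *H2-Aa* illustrates the spread, at 1659 FPKM in AAN B642 and 469 FPKM in AAN B614. Without AAN B614 the 4 pair differences of *H2-Ab1*, *H2-Aa*, *Cd74* and *H2-DMa* from their class I partners stayed past the limit, as they did without any other single mouse.

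**Figure D4:**
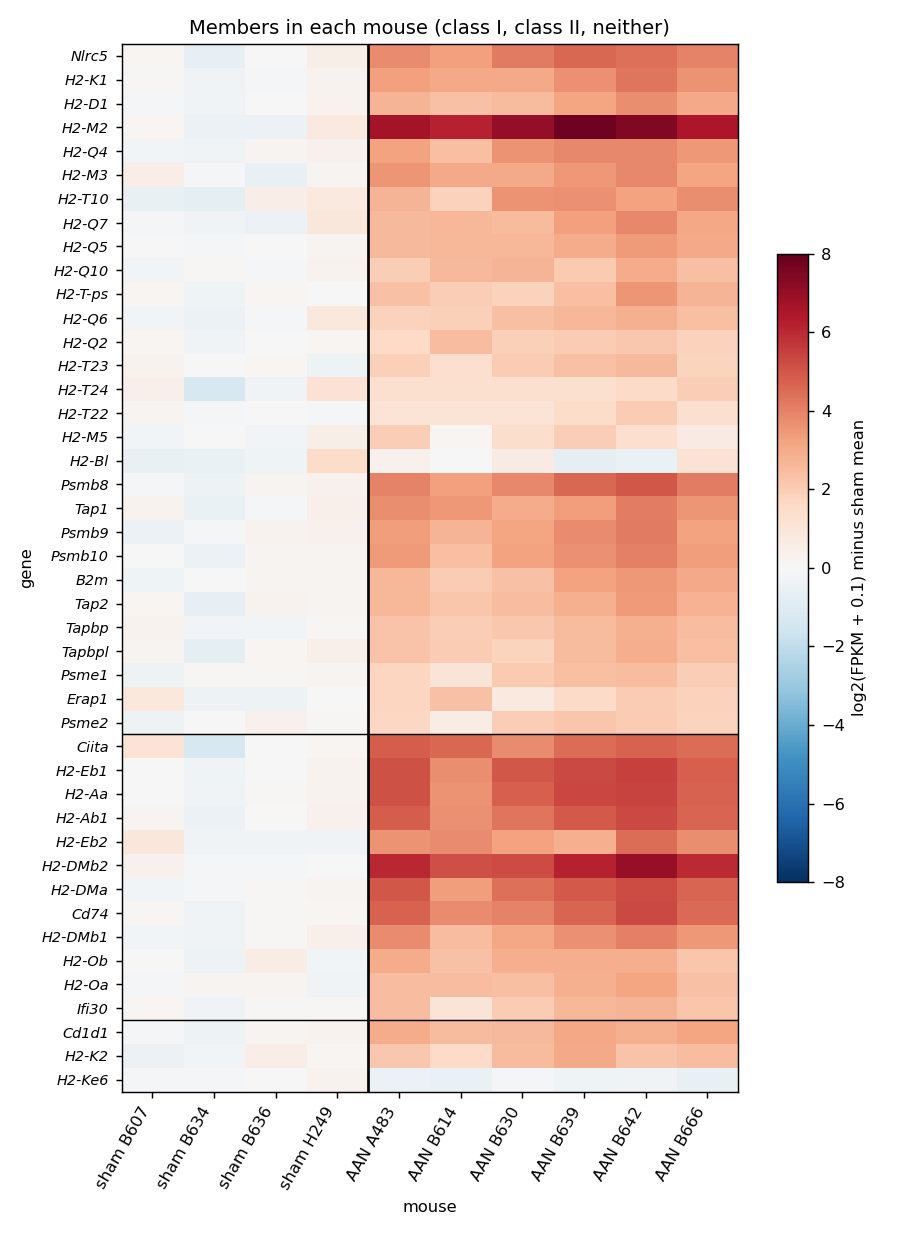
Difference of log2(FPKM + 0.1) from the sham mean for the 44 members (rows, by class and role) in each of the 10 mice (columns). AAN B642 was the highest AAN mouse in 30 members and AAN B614 the lowest in 27.

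Of the 3 members in neither class, *Cd1d1* rose from a sham mean of 0.264 ± 0.0731 FPKM (SD, n = 4) to an AAN mean of 2.53 ± 0.454 FPKM (SD, n = 6), by 2.86 (SE 0.21, adjusted p = 5.22e-07), and the pseudogene *H2-K2* from a sham mean of 3.17 ± 0.996 FPKM (SD, n = 4) to an AAN mean of 16.6 ± 5.29 FPKM (SD, n = 6), by 2.34 (SE 0.27, adjusted p = 1.85e-05). *H2-Ke6*, which encodes a steroid dehydrogenase and no antigen presenting chain, was at 13.1, 13.6, 14.9 and 17.5 FPKM in the sham mice and from 9.63 to 13.5 FPKM (median 11.1) in the AAN mice. Its groups overlapped, with a log2 fold change of -0.40 (SE 0.15, adjusted p = 0.0380) that missed the 2-fold limit, and it was called lower (-1.15) after the median of ratios. It shares 61.6% of its windows with the overlapping gene *Gm20427*.

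Other genes of the pathway moved in part with the members. In the interferon gamma pathway, 9 of 9 genes were called higher, where 35.8% of all genes were. Their median was 2.60, from *Jak1* (1.04) to *Socs1* (3.76), the feedback inhibitor. After the median of ratios 7 of 9 were called and after quantile normalization 8 of 9, where 19.1% and 14.9% of all genes were. *Jak1* lost its call under both, at 0.286 (adjusted p = 0.203, limma) after the first. *Ifng*, with a sham mean of 0.0759 FPKM and 0 in 2 sham mice, passed the filter through the AAN mice, so its call follows in part from the filter. The list of costimulation holds the activating ligands *Cd80*, *Cd86* and *Icosl*, the receptor *Cd40* and the inhibitory ligands *Cd274* (PD-L1) and *Pdcd1lg2* (PD-L2). All 6 were called higher, where 35.8% of all genes were. They ran from *Cd274* (2.86 (SE 0.18, adjusted p = 2.14e-07)) to *Pdcd1lg2* (5.07), listed at 0 in 3 sham mice, whose fold change was 2.19 with a pseudocount of 1 and 7.91 with 0.01. *Cd80* was also at 0 in 3 sham mice, and both passed the filter through the AAN mice, so their calls too follow in part from it. Among the proteases and the inhibitor of the class II compartment, 4 of 6 were called higher, where 35.8% of all genes were. After the median of ratios 1 of 6, *Ctss*, was called higher, where 19.1% of all genes were. After quantile normalization it was 4 of 6 again, where 14.9% were. *Ctss*, the protease that cuts the invariant chain in antigen presenting cells, was at 10.8, 4.39, 8.01 and 10.5 FPKM in the sham mice and from 187 to 603 FPKM (median 443) in the AAN mice. Its groups were separate and it rose by 5.58 (SE 0.35, adjusted p = 2.31e-07), while *Ctsl*, which does this in thymic epithelium, was at 0.44 (SE 0.23, adjusted p = 0.111). Of the 2 ubiquitin ligases of class II, *March1* was called higher (1.84 (SE 0.23, adjusted p = 3.10e-05)) and *March8* was not (0.67 (SE 0.51, adjusted p = 0.266)). *March1* averaged 0.0817 FPKM in sham and 0.564 FPKM in AAN, so that it too passed the filter through the AAN mice, and it lost its call with a pseudocount of 1 (0.53) and after quantile normalization (0.68).

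Leukocyte markers were higher in the same mice. The list of general leukocyte markers (*Ptprc*, *Cd53* and *Cd52*) was called higher in 3 of 3, with a sum of 7.31 ± 1.61 FPKM (SD, n = 4) in sham and 230.4 ± 84.96 FPKM (SD, n = 6) in AAN. All 6 macrophage markers, 7 of 7 dendritic cell markers and 5 of 5 T cell markers were called higher, where 35.8% of all genes were. These calls held after the median of ratios and, but for 1 dendritic cell marker, after quantile normalization, where 19.1% and 14.9% of all genes were called higher. *Flt3*, a dendritic cell marker with a sham mean of 0.0605 FPKM, passed the filter through the AAN mice. The macrophage sum was 37.5 to 60.3 FPKM in the sham mice and 1820, 609.8, 1250, 1627, 2127 and 1654 FPKM in AAN A483, B614, B630, B639, B642 and B666, with *C1qa* the most abundant. The dendritic cell sum was 1.34 to 3.58 FPKM in sham and 35.3 (AAN B614) to 75.6 FPKM (AAN B639) in AAN, led by *Itgax*. AAN B614 was thus the lowest AAN mouse in both sums, as it was in 8 of 12 class II members. The T cell sum, led by *Cd3g*, was 0.617 to 2.45 FPKM in sham and 57.8 to 155.6 FPKM in AAN. No marker of these lists was at 0 in all sham mice. The NK cell sum, led by *Prf1*, was 0.0592 to 0.312 FPKM in sham and 0.721 to 1.58 FPKM in AAN, with 1 of 2 markers tested, *Prf1*, called higher. It passed the filter through the AAN mice, from a sham mean of 0.0949 FPKM, and its call was lost after quantile normalization and with a pseudocount of 1. The part of these cells in the changes of the members was not tested.

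Among the kidney cell markers, the proximal tubule list was called lower in 4 of 5 genes, where 3.43% of all genes were. Under the median of ratios it was 5 of 5, where 10.5% of all genes were. Its sums were 1599 to 3475 FPKM in sham and 465 to 1788 FPKM in AAN, of which the highest was AAN B614. The injury markers *Havcr1*, *Lcn2* and *Vcam1* were called higher, where 35.8% of all genes were (*Havcr1*, at a sham mean of 0.0337 FPKM, passed the filter through the AAN mice). Their sums were 1.05 to 1.73 FPKM in sham and 94.5 (AAN B614) to 305.5 FPKM (AAN B666) in AAN. The endothelial list gave 0 of 4 calls by limma, the podocyte list 0 of 3, the thick limb list 0 of 2 and the list of distal tubule and collecting duct 0 of 3. Of all genes, 35.8% were called higher and 3.43% lower, so lists this short would seldom hold a gene called lower. In the endothelial list, *Pecam1* (0.93, adjusted p = 0.000155, limma) and *Cdh5* (0.77, adjusted p = 0.00342) missed only the fold limit, and their groups did not overlap. After the median of ratios 1 endothelial, 1 thick limb and 1 distal gene (*Kdr*, *Umod* and *Aqp2*) were called lower, at -1.02, -1.80 and -1.18. The endothelial sum was 22.0 to 36.1 FPKM in sham and 34.0 to 48.3 FPKM in AAN. Since tubule and endothelial cells can carry both classes, the values do not say which cells held the transcripts.

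**Figure D5:**
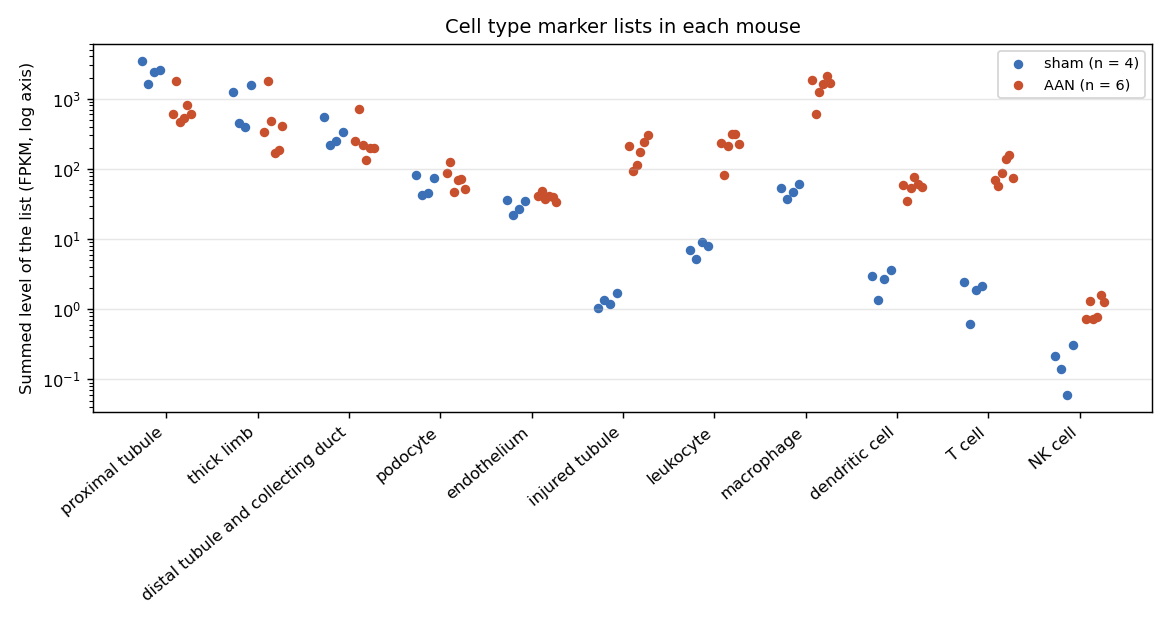
Summed level of 11 lists of cell type markers in each mouse (FPKM, log axis), with 4 sham mice (blue) and 6 AAN mice (orange). The macrophage sum ran from 37.5 to 60.3 FPKM in sham and from 609.8 to 2127 FPKM in AAN, and the proximal tubule sum of 5 of 6 AAN mice lay under that of all sham mice.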

How the data were processed

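RNA from the cortex of kidney of 4 sham and 6 AAN mice was sequenced as paired-end TruSeq libraries on the HiSeq Xten. The authors filtered out rRNA, adapters and short or low-quality reads, aligned the others to GRCm38.p4 with Hisat2 2.0.4 and deposited FPKM per gene and mouse from Stringtie 1.3.0. The authors tested with edgeR, which needs counts. The deposited values are FPKM, so limma 3.58.1 in R 4.3.3 (trend, robust) was fitted here to log2(FPKM + 0.1) of the 17129 genes averaging 0.1 FPKM or more, with Benjamini-Hochberg adjustment and the same limits of 0.05 and 2-fold. Fold changes are on that scale, which understates those of low genes. Strand use is not stated, and members that overlap another gene with values are uncertain. *Psmb9* and *Tap1* overlap each other. Further cases include *H2-DMa* (with *Brd2*), *H2-Eb1* (*Gm20513*), *B2m* (*Patl2*), *Erap1* (*Cast*) and *Ciita* (*Dexi*).

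Depth was recovered from values under 0.3 FPKM in genes with 1 transcript, of which 94.7% to 96.9% were whole fragments (tolerance 0.05), against 9.58% to 11.8% in genes with several, so counts were not recovered. It covers counting error only. Differences within a mouse for 9 pairs were tested by an exact two-sided permutation test over 210 splits. Positions came from GENCODE release M21 and promoters from RefSeq (GRCm38.p6). The members and lists were chosen with earlier results of these data known. Genes named are the members averaging 1 FPKM or more, the class-defining members and, of each list of other pathway genes, those with the largest and smallest change. *H2-Bl*, *H2-M5*, *H2-Q1*, *H2-Q10*, *Nfya*, *Psmb7*, *Canx*, *Hspa5*, *Ifng*, *Cd40*, *Cd80*, *Cd86*, *Icosl* and the cell type markers are named beside that rule. Of the marker lists, 1 is not reported here. On simulated data for the comparison of AAN with sham, 87.6% of 178 genes changed 4-fold were found among 15185, with 6 false calls. Alternatives were pseudocounts of 1 and 0.01, other filters and scalings, limma without trend or robust, no fold limit, each mouse left out, and mice with B tags alone. Other steps ran in Python 3.11.15 with scipy 1.17.1, pandas 2.3.3 and numpy 2.4.6, and figures were drawn with matplotlib 3.10.9.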

Additional observations from a re-analysis of the deposited data

Results flagged for a closer look

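Of 110 groups of 4 or 6 values examined (the 41 named members and the pairs, class medians and library measures), 11 held a mouse far from the others, where chance gives about 1 in 20, or 5.5. On the log2(FPKM + 0.1) scale, sham B634 was the lowest sham mouse for *Tap2* at 1.40 (2.53 FPKM, others 4.55 to 4.86), *Cd74* at 6.52 (91.8 FPKM, others 118.6 to 124.5) and *Ifi30* at 5.59 (48.2 FPKM, others 62.8 to 65.1). The same mouse had the lowest class II median difference from the sham mean, at -0.30, and the fewest genes above 0, at 16690. AAN B614 was the lowest AAN mouse for *Psme2* at 2.71 (6.43 FPKM, others 13.8 to 20.1) and for *H2-DMa* minus *Tapbp* at -0.32 (others 0.48 to 0.92). AAN B630 was the lowest for *Ciita* at 2.68 (6.32 FPKM, others 10.2 to 13.2). AAN B666 was the highest for *H2-T24* at 2.29 (4.803 FPKM, others 2.83 to 3.43). Sham B607 was the highest for *H2-Eb2* at -2.12, since the other sham mice were at 0. AAN B639 had the lowest depth, 13.4 M fragments.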

How the results depend on the processing

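No paired analysis was possible because the groups are different mice, which the labels do not number or pair (replicate numbers used here follow accession order). The alternatives written for counts were not run, since the values are FPKM. Genes called higher went from 6126 to 4025 among genes averaging 1 FPKM or more, 2909 with 1 as the pseudocount, 3266 after the median of ratios, 2546 by quantile normalization and 9482 with no fold limit, and genes called lower from 588 to 1802, 1992 and 1027 in the last 3. Without each mouse in turn they were 5488 to 6684 and 524 to 703. Members called lower went from 0 to 1, *H2-Ke6*, after the median of ratios and with no fold limit. *Psme1* minus *Psme3* was 1.79 (adjusted p = 0.0603 by the exact permutation test) with B tags alone and 1.32 to 1.89 without each mouse in turn. The other 8 pairs kept their side of the limit. In all, 36 of 41 named members kept their call after the median of ratios (*Erap1*, *Psme2*, *H2-T22* and *H2-T24* lost it), 38 after quantile normalization and 40 with a pseudocount of 1. All 4 chaperones and all 7 constitutive beta subunits lay below 0 after the median of ratios, with highest values of -0.348 and -0.080. Among the other pathway genes followed singly through every alternative and not called, signs turned after the median of ratios for *Pdia3* (-0.35), *Calr* (-0.73), *Nfyc* (-0.54), *Ctsl* (-0.33), *March8* (-0.074), *Psmb2* (-0.080), *Psmb5* (-0.72) and *Psme3* (-0.46), and after quantile normalization for *Calr* (-0.065), *Nfyc* (-0.42), *March8* (-0.16) and *Psme3* (-0.090). They also turned for *March8* with B tags alone (-0.0024), and, with 1 mouse left out, for *Calr* (range -0.059 to 0.149), *Psmb5* (-0.023 to 0.145) and *Psme4* (-0.259 to 0.181). The cause was not tested. Depth limits *H2-M2*, *H2-M5*, *H2-Eb2* and *H2-Q1*, which were listed at 0 in 2 or 3 sham mice.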
